A study of Mus musculus with 18 samples.

Results

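Xenobiotic metabolism genes were examined across the sorted cell populations of the mouse airway and lung. The set held 42 listed genes of 27179 counted: 9 cytochrome P450 genes, 2 electron donors, 3 flavin monooxygenases, 9 glutathione transferases, 7 aldehyde dehydrogenases, 2 alcohol dehydrogenases, 4 hydrolases, 3 other transferases and 3 reductases or oxidases. Members were taken by symbol and all 42 were found and passed the filter on low counts. RNA came from untreated C57BL/6 mice, which per the study's methods were adult males, and 6 populations were sorted with 3 libraries each. Basal stem cells (BSCs, NGFR-positive) and tracheal non-basal cells (NGFR-negative) were taken from the tracheas of mice 1 to 3. Alveolar cells (EpCAM high, CD104 low), airway cells with high CD24 (CD24hi, described as enriched in ciliated cells), airway cells with low CD24 (CD24lo, described as enriched in club cells) and EpCAM-negative cells were taken from the lungs of mice 4 to 6. All lung gates were depleted of CD45-positive and CD31-positive cells. Trachea and lung therefore differ in organ, animals and sequencing depth at once. Per the study's methods they also differ in dissociation, with dispase and trypsin for trachea and collagenase for lung. Organ, animals and dissociation cannot be told apart, and for depth the tracheal reads were thinned as an alternative.

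Xenobiotic metabolism proceeds in steps. Cytochrome P450 enzymes and flavin monooxygenases oxidise foreign and endogenous compounds, with electrons that P450s receive from Por and, for some reactions, Cyb5a. Epoxide hydrolases, carboxylesterases, alcohol and aldehyde dehydrogenases and carbonyl reductases act on the compounds or on their oxidised products, and glutathione, glucuronic acid, sulfate or acetyl groups are then attached by transferases. In the lung this chemistry is best known from club cells, secretory cells of the airways, whose P450s turn some inhaled compounds into reactive products. Several aldehyde and alcohol dehydrogenases also act on retinoids.

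The 42 genes took up to 7.5% of all counted reads in a library. Reads on them amounted to 6.99% ± 0.446 of counted reads in tracheal non-basal cells (mean ± SD, n = 3, as for all values given with ±), 5.2% ± 0.339 in CD24lo cells, 4.2% ± 0.397 in BSCs and 3.38% ± 0.325 in CD24hi cells. They amounted to 0.949% ± 0.0322 in alveolar cells and 0.781% ± 0.0709 in EpCAM-negative cells. The lowest library of the 4 airway and tracheal populations stood at 3.16% and the highest of the other two populations at 0.983%, so these ranges did not overlap. P450 genes alone took 3.12% ± 0.199 of reads in tracheal non-basal cells against 0.0401% ± 0.00225 in alveolar cells. A small number of genes carried most of this: the 5 members with the most reads held between 63.2% of the member reads, in EpCAM-negative cells, and 79.3%, in CD24lo cells. By mean level, *Cbr2* ranked 2nd and *Cyp2f2* 3rd among the 17989 genes tested in CD24lo cells, and *Cyp2f2* ranked 2nd in BSCs.

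**Figure D1:**
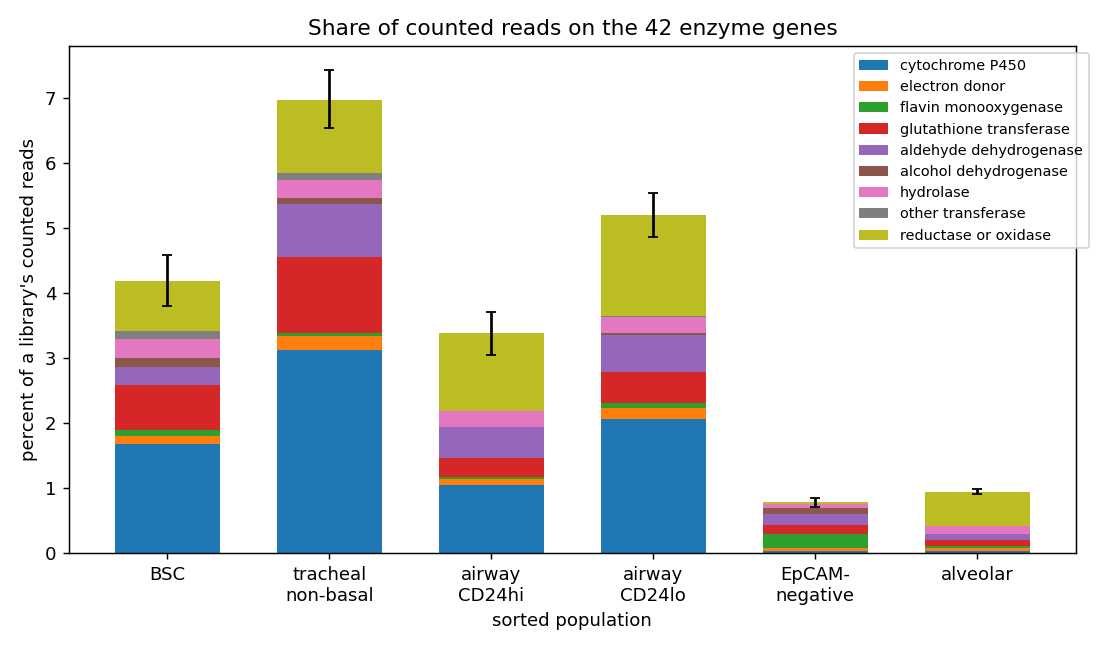
Mean percent of a library's counted reads that fell on the 42 enzyme genes (y axis) in each sorted population (x axis), stacked by enzyme class, with the SD of the total over 3 libraries as the error bar. The total is 6.99% in tracheal non-basal cells and 0.781% in EpCAM-negative cells, and P450 genes make up 3.12% and 0.0388% of reads there.

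Libraries held 29317215 to 32993621 counted reads in trachea and 9811503 to 13208897 in lung, so genes with few transcripts were measured less precisely in lung. Levels are given as RPKM, reads scaled to gene length and to sequencing depth, with TMM factors. Marker sums of the cell types named for a gate were highest in that gate, with other cells present in some. The 6 basal markers summed to 2058 to 2156 RPKM in BSC libraries and 163 to 205 in non-basal libraries. Ciliated markers (6 genes) summed to 6516 to 7650 RPKM in CD24hi libraries and 511 to 1226 in CD24lo libraries, and the 5 club markers to 70513 to 92936 and 488452 to 688897. Alveolar type 2 markers (5 genes) summed to 154352 to 173424 RPKM in alveolar libraries and 2868 to 5924 in CD24lo libraries. The 6 fibroblast markers were all present in EpCAM-negative libraries, at 6776 to 7067 RPKM, and the 5 endothelial markers were at 136 to 228 RPKM there and at 117 to 276 RPKM in CD24lo libraries although CD31-positive cells had been removed. Smooth muscle markers (3 genes) summed to 990 to 1047 RPKM in EpCAM-negative libraries. Ciliated markers summed to 304 to 452 RPKM in non-basal libraries and 186 to 258 in BSC libraries. The 4 mesothelial markers summed to 1226 to 1268 RPKM in non-basal libraries, where only 1 of them had a mean of at least 1 RPKM, and to 16.1 to 34.7 in EpCAM-negative libraries. In these bulk libraries, fewer cells of a type and less RNA per cell cannot be told apart.

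Most members had one population in which all 3 libraries lay above the other 15. For 14 of 42 this was the tracheal non-basal population (5.65% of all genes tested), for 8 the EpCAM-negative cells (17.7%), for 5 the CD24lo cells (1.64%), for 4 the CD24hi cells (15.2%), for 2 the BSCs (10.3%) and for 1 the alveolar cells (9.6%). The remaining 8, *Cyp1a1*, *Cyp1b1*, *Fmo5*, *Gstm1*, *Adh7*, *Ephx1*, *Ces1f* and *Nat2*, had no such population. The non-basal genes were *Cyp2f2*, *Cyp2a5*, *Cyp4b1*, *Cyp2j6*, *Por*, *Gsta3*, *Gsta4*, *Gsto1*, *Aldh1a1*, *Aldh3a1*, *Ces1d*, *Sult1d1*, *Akr1c18* and *Aox3*, and scaling by library size alone left 10 genes in that class. CD24lo cells were highest for *Cyb5a*, *Mgst1*, *Aldh1a7*, *Aldh2* and *Cbr2*, and CD24hi cells for *Cyp2b10*, *Cyp2s1*, *Gstp1* and *Aldh3b1*. EpCAM-negative cells were highest for *Cyp2e1*, *Fmo1*, *Fmo2*, *Gstm5*, *Aldh1a2*, *Aldh1a3*, *Adh1* and *Ephx2*. BSCs were highest for *Gstm2* and *Ugt2b34*, and alveolar cells for *Gstt1*, which lost its place with library size alone. The levels are a description, with no test.

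**Figure D2:**
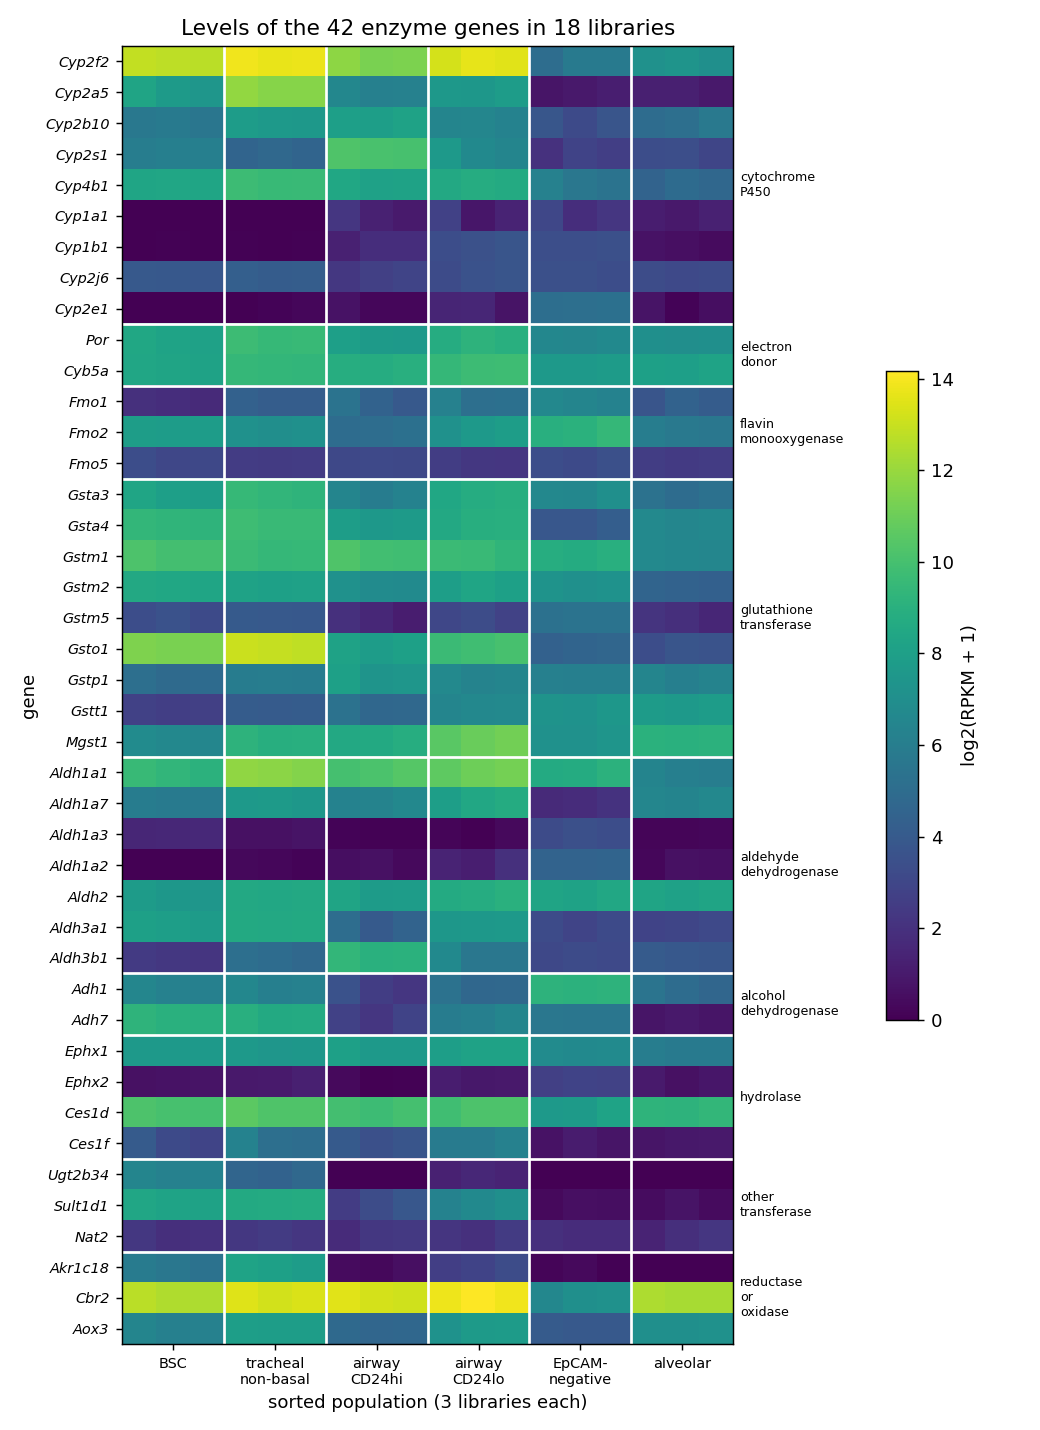
Level of each of the 42 enzyme genes (rows, grouped by enzyme class) in each of 18 libraries (columns, 3 per population), as log2(RPKM + 1) by colour. *Cyp2f2* is bright in the tracheal and airway populations and *Cbr2* in these and in alveolar cells. *Cyp2s1* and *Aldh3b1* are bright in CD24hi cells, and *Adh1* and *Fmo2* in EpCAM-negative cells.

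Upstream sequence was searched in all members with a matched start site, and a few were printed as examples. The printed genes were picked by hand and not by a rule, so they do not show how common a motif is. The shares over all windows are given after the sequences. RefSeq start sites (GRCm38.p6) were matched by symbol for 32 of 42 members, which had 36 windows. The 250 bases before the start are printed for *Cyp2f2* and *Cyp2a5*, P450 genes that led in non-basal cells, for *Adh7*, for both annotated start sites of *Aldh1a1*, and for *Gstt1*, which led in alveolar cells instead. Capitals mark the C/EBP motif TTGCNNAA.
*Cyp2f2*, chr7:27119705-27119954, plus strand: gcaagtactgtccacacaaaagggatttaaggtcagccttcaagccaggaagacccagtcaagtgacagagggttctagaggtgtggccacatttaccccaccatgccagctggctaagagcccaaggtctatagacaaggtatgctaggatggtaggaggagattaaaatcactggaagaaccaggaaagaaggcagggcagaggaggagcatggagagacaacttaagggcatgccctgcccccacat
*Cyp2a5*, chr7:26835089-26835338, plus strand: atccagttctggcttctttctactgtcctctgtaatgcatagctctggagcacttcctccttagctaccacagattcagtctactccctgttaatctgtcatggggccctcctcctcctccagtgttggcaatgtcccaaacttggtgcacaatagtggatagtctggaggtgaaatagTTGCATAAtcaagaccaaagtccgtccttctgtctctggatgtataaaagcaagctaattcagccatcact
*Aldh1a1*, chr19:20492333-20492582, plus strand: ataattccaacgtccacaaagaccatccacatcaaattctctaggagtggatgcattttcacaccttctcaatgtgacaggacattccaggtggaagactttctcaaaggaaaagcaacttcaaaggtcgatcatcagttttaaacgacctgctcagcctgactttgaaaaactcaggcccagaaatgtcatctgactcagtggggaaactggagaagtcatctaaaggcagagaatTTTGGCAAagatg
*Aldh1a1*, chr19:20601718-20601967, plus strand: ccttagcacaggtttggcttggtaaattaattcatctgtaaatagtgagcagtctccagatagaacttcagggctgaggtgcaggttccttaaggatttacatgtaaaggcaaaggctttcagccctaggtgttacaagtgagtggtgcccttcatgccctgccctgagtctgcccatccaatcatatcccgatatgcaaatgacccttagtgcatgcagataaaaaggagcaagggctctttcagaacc
*Adh7*, chr3:138217523-138217772, plus strand: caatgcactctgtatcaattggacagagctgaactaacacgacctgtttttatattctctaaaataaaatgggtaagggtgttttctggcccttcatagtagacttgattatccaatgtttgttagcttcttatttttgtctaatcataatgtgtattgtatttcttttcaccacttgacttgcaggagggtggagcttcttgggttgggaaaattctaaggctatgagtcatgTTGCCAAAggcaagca
*Gstt1*, chr10:75797732-75797981, minus strand: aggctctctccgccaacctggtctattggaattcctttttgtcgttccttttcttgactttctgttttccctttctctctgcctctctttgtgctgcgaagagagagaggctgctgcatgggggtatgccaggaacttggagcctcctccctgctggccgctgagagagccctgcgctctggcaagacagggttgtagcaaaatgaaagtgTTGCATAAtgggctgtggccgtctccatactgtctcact
The motif TTGCNNAA, searched on both strands, was in 10 of 36 member windows (27.8%), belonging to 9 genes, and in 9.56% of all 32851 windows of the same length. It began 71 bases before the matched start site of *Cyp2a5*, 39 before that of *Gstt1*, 16 before that of *Adh7* and 13 before the distal start of *Aldh1a1*. It was not found in the *Cyp2f2* window or in that of the second *Aldh1a1* start. The matched starts of *Adh7* and *Gstt1* lie inside the annotated spans of these genes (chr3:138198064-138232042 and chr10:75783813-75798584), so these windows are not upstream of the whole gene. The antioxidant response motif TGACNNNGC was in 4 member windows (11.1%, against 10.2% of all windows). The aryl hydrocarbon receptor motif TNGCGTG was in 1 (2.78% against 4.1%) and the FOXA motif TGTTTAC in 1 (2.78% against 3.17%). These are letter matches in short windows and no binding was measured.

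Airway CD24lo and CD24hi cells were compared to ask how the enzymes differ between gates enriched in club and in ciliated cells of the same lungs. By edgeR's quasi-likelihood test, fitted once to the 18 libraries, with p-values adjusted by Benjamini-Hochberg for 17989 genes and called under 0.05, 32 of 42 members were higher in CD24lo cells (27.2% of all genes were called higher) and 6 lower (27.8%). The median log2 fold change was 1.25 over members and 0.06 over all genes tested. Among P450s 6 of 9 were higher and 2 lower, and among glutathione transferases 7 of 9 and 2. *Cyp2f2*, the P450 best known for activating naphthalene in club cells, was at 9815, 13091 and 11877 RPKM in CD24lo libraries and at 3452, 2572 and 2654 in CD24hi libraries. The groups did not overlap and the log2 fold change was 2.00 (SE 0.19, adjusted p = 1.04e-07 in edgeR). The 5 club markers moved in the same direction: in CD24hi cells *Scgb3a1* was 8.1% of its CD24lo level, *Scgb3a2* 9.69%, *Scgb1a1* 13.1%, *Lypd2* 19.8% and *Cckar* 25.5%, and *Cyp2f2* was 25.0%. The part of club cells in the CD24hi gate was not tested.

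Among members with a mean of at least 10 CPM in one of the gates, those that rose furthest in CD24lo cells were not the most abundant ones. *Adh7*, an alcohol dehydrogenase that also oxidises retinol, was at 60.8, 69.7 and 88.1 RPKM in CD24lo and 5.7, 3.81 and 6.09 in CD24hi libraries, a log2 fold change of 3.81 (SE 0.18, edgeR adjusted p = 1.36e-10). *Sult1d1*, a sulfotransferase, was at 77.5, 104 and 134 RPKM against 4.7, 8.7 and 13.4, a log2 fold change of 3.56. All 3 CD24lo libraries of both genes stood above all 3 CD24hi libraries. *Aldh3a1*, an aldehyde dehydrogenase for aromatic and lipid aldehydes, rose by 3.04 on the log2 scale, *Aox3*, an aldehyde oxidase, by 2.89 and *Fmo2*, the flavin monooxygenase typical of lung, by 2.52. *Ugt2b34* had 2 reads in all CD24hi libraries and 153 in CD24lo libraries, a ratio of read shares of 83.1 with an exact 95% counting interval of 22.6 to 693.

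A contrasting group rose in CD24hi cells, the gate enriched in ciliated cells. *Cyp2s1*, a P450 of surface epithelia, was at 1258, 1083 and 1082 RPKM in CD24hi libraries and at 203, 104 and 86 in CD24lo libraries. *Aldh3b1*, which oxidises lipid aldehydes, was at 659, 516 and 541 RPKM against 105, 49.1 and 47.8. Both groups were separate, with log2 fold changes for CD24lo against CD24hi of -3.12 (SE 0.27) for *Cyp2s1* and -3.08 (SE 0.23) for *Aldh3b1*, and edgeR adjusted p of 3.11e-08 and 6.71e-09. The CD24lo library of mouse 4 was the highest of its group for both genes, and its ciliated marker sum was 1226 RPKM where the others had 521 and 511. Without that library the log2 fold changes were -3.58 and -3.56. The part of ciliated cells in this gate was not tested. *Cyp2b10* fell by 1.61 on the log2 scale in CD24lo cells, *Gstp1* by 1.17, *Fmo5* by 0.83 and *Gstm1* by 0.49.

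**Figure D3:**
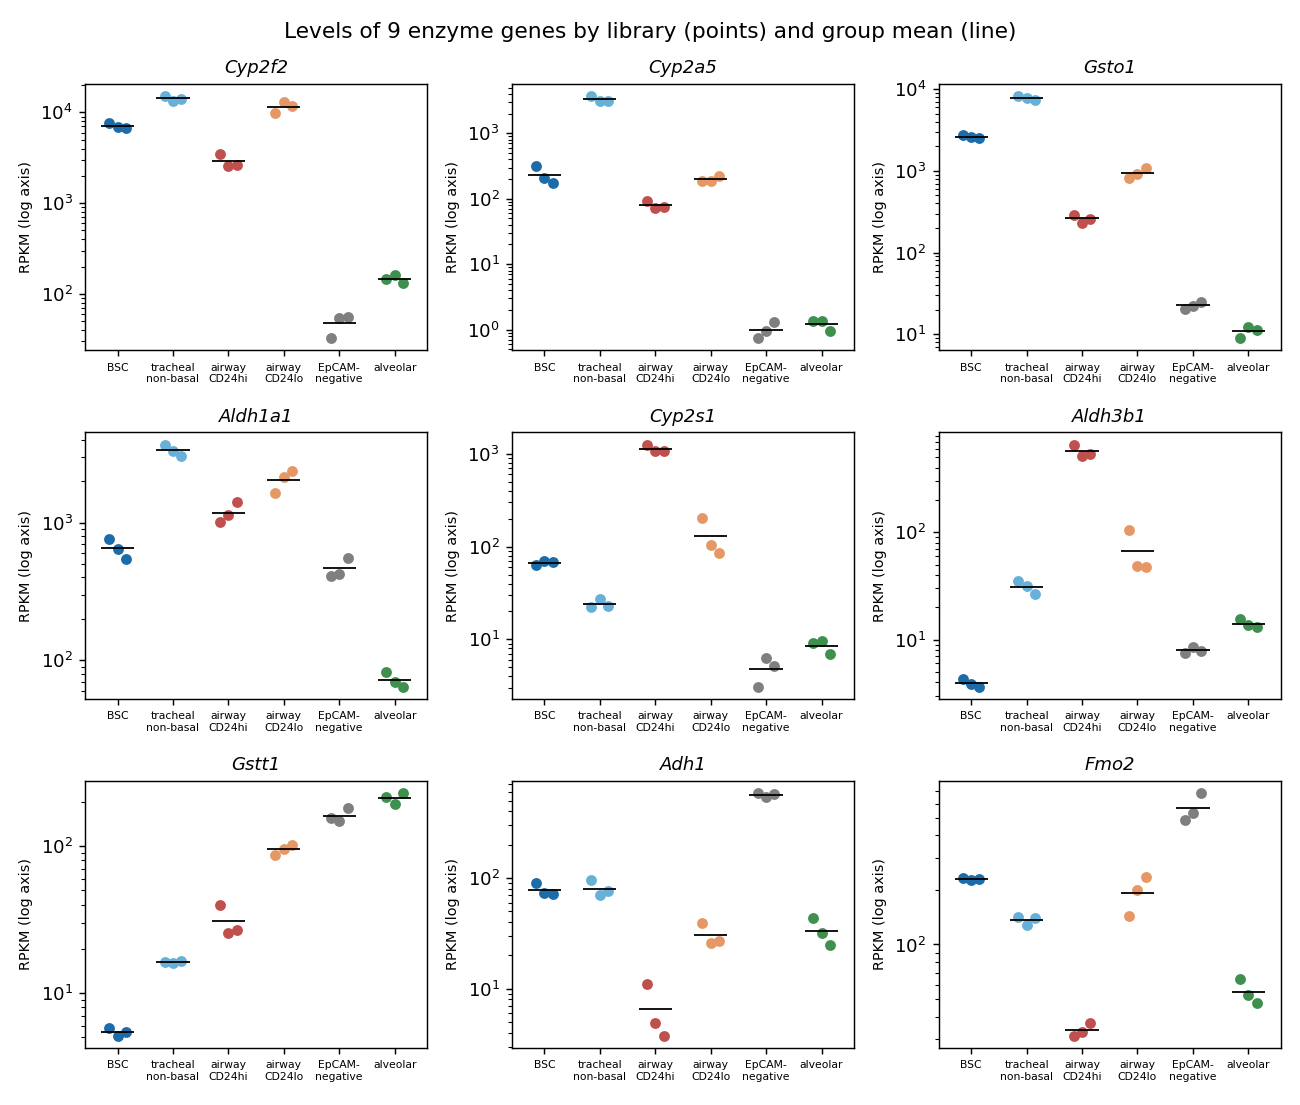
RPKM (log axis) of 9 enzyme genes in each library (points, 3 per population) with the mean of the group (line), across the 6 sorted populations on the x axis. *Cyp2f2*, *Cyp2a5*, *Gsto1* and *Aldh1a1* have their highest points in tracheal non-basal cells, *Cyp2s1* and *Aldh3b1* in CD24hi cells, *Gstt1* in alveolar cells and *Adh1* and *Fmo2* in EpCAM-negative cells.

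Airway CD24lo and alveolar cells of the same lungs differed further. Of 42 members 33 were higher in CD24lo cells (24.2% of all genes) and 1 was lower (24.2%), and the median log2 fold change was 1.93 over members against 0.03 over all genes tested. *Gsto1*, an omega-class glutathione transferase that reduces dehydroascorbate, was at 818, 924 and 1074 RPKM in CD24lo libraries and at 9.02, 12.1 and 11.3 in alveolar libraries. *Cyp2a5*, a P450 that hydroxylates coumarin and nicotine, was at 187, 184 and 224 RPKM against 1.34, 1.34 and 0.942. No library of one group reached the range of the other. The log2 fold changes were 6.44 for *Gsto1* (SE 0.17) and 7.35 for *Cyp2a5* (SE 0.27), with edgeR adjusted p of 8.79e-14 and 7.31e-13. *Sult1d1* rose by 7.80, *Adh7* by 6.49 and *Cyp2f2* by 6.30 on the log2 scale. *Akr1c18*, a hydroxysteroid dehydrogenase, had 229 reads in CD24lo libraries and 0 in alveolar libraries, and was at least 82.5-fold higher against a floor of 3 reads over the group. *Ugt2b34* had 153 reads against 0, at least 55.1-fold higher by the same floor.

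*Cyp2f2* in alveolar cells, at 147 ± 14.8 RPKM, was 1.27% of its CD24lo level. Of the club markers *Scgb3a1* was 0.299% of its own, *Scgb3a2* 0.474%, *Lypd2* 0.667%, *Scgb1a1* 0.67% and *Cckar* 8.53%. The part of airway cells in the alveolar gate was not tested. The member that went the other way was *Gstt1*, a theta-class transferase that acts on small halogenated compounds. It was at 216, 193 and 228 RPKM in alveolar libraries and at 86.3, 95.9 and 102 in CD24lo libraries, with no overlap and a log2 fold change of -1.17 (SE 0.13, edgeR adjusted p = 9.13e-07). Alveolar cells also kept several members at high levels. *Cbr2*, the carbonyl reductase abundant in mouse lung, was at 5488, 5106 and 5127 RPKM there, *Ces1d*, a carboxylesterase, at 619 ± 51.3, *Mgst1*, a membrane-bound glutathione transferase, at 524 ± 17.8 and *Aldh2*, the mitochondrial acetaldehyde dehydrogenase, at 297 ± 21.5. The 8 members not called were *Fmo5*, *Adh1*, *Aldh1a3*, *Gstp1*, *Cyp2j6*, *Ephx2*, *Nat2* and *Cyp1a1*.

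Tracheal non-basal cells and BSCs came from the same mice, so this comparison asks how the enzymes differ between the basal stem cells and the other cells of one epithelium. Of 42 members 27 were higher in non-basal cells (26.2% of all genes) and 7 lower (21.9%). The median log2 fold change was 0.91 over members and 0.02 over all genes tested. *Cyp2a5* was at 3748, 3076 and 3091 RPKM in non-basal libraries and at 316, 210 and 176 in BSC libraries, a log2 fold change of 3.82 (SE 0.21, edgeR adjusted p = 1.62e-10). *Aldh1a1*, which oxidises retinal and other aldehydes, was at 3690, 3338 and 3036 RPKM against 760, 641 and 547, a log2 fold change of 2.37 (SE 0.18, edgeR adjusted p = 1.18e-08). The groups were separate for both genes. *Aldh3b1* rose by 2.98, *Fmo1* by 2.79 and *Akr1c18* by 2.44 on the log2 scale. 6 of 7 aldehyde dehydrogenases, 7 of 9 glutathione transferases and both electron donors were higher in non-basal cells.

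The BSCs nevertheless held many of these enzymes at high level. *Cyp2f2* was at 7570, 6942 and 6803 RPKM in BSC libraries and at 15264, 13507 and 14034 in non-basal libraries, with no overlap and a log2 fold change of 1.01 (SE 0.19, edgeR adjusted p = 0.000254). Its BSC level was thus 49.8% of the non-basal level. The 5 club markers stood lower in BSCs by the same measure, at 2.18% for *Scgb1a1*, 1.76% for *Scgb3a1*, 1.52% for *Cckar*, 16% for *Scgb3a2* and 24.4% for *Lypd2*. *Gsto1* was at 2747, 2569 and 2525 RPKM in BSCs and *Cbr2* at 6821, 5765 and 5499. The part of carried-over non-basal cells or RNA in these levels was not tested.

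Among the 7 members lower in non-basal cells, *Ugt2b34*, a glucuronosyltransferase, had 85.3, 74.1 and 78.3 RPKM in BSCs and 23.4, 20.7 and 27.0 in non-basal cells. Its log2 fold change was -1.74 (SE 0.13, edgeR adjusted p = 2.32e-08). *Cyp2s1* had 64.0, 69.3 and 67.4 RPKM in BSCs against 22.5, 27.0 and 23.0, a log2 fold change of -1.47. BSC libraries lay above non-basal libraries for both. *Fmo5* fell by 0.77, *Fmo2* by 0.76, *Gstm1* by 0.53 and *Gstm2* by 0.32 on the log2 scale, and *Aldh1a3*, a retinal dehydrogenase, fell by 1.75 from 2 ± 0.135 to 0.593 ± 0.0598 RPKM. *Adh7* was high in both populations, at 536 ± 57.1 RPKM in BSCs and 430 ± 53.2 in non-basal cells, with overlapping libraries and no call in edgeR (adjusted p = 0.0948), although limma voom called it lower in non-basal cells (adjusted p = 0.0451). *Adh1*, a liver-type alcohol dehydrogenase, was at 78.6 ± 9.91 and 80.0 ± 13.2 RPKM. *Cyp1a1*, the P450 most strongly induced through the aryl hydrocarbon receptor, had 1 read in BSC libraries and 2 in non-basal libraries. *Sult1d1* was not called, and was called higher with the mouse as a block (adjusted p = 0.0317, edgeR).

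The comparison of CD24lo with CD24hi cells and that of non-basal cells with BSCs share no library. Of 42 members 24 were higher in the first-named population of both (8.62% of all genes tested), and 15 with library size alone (4.65%). Among those called with both scalings were *Cyp2f2*, *Cyp2a5*, *Mgst1*, *Por*, *Gsto1* and *Aldh1a1*. Opposite calls were made for 6 members. *Fmo2*, *Gstm2* and *Ugt2b34* were higher in CD24lo than in CD24hi cells and lower in non-basal cells than in BSCs, and *Aldh3b1*, *Cyp2b10* and *Gstp1* the reverse. For CD24lo against alveolar cells and non-basal cells against BSCs, which also share no library, 23 members were higher in both (10.8% of all genes tested).

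**Figure D4:**
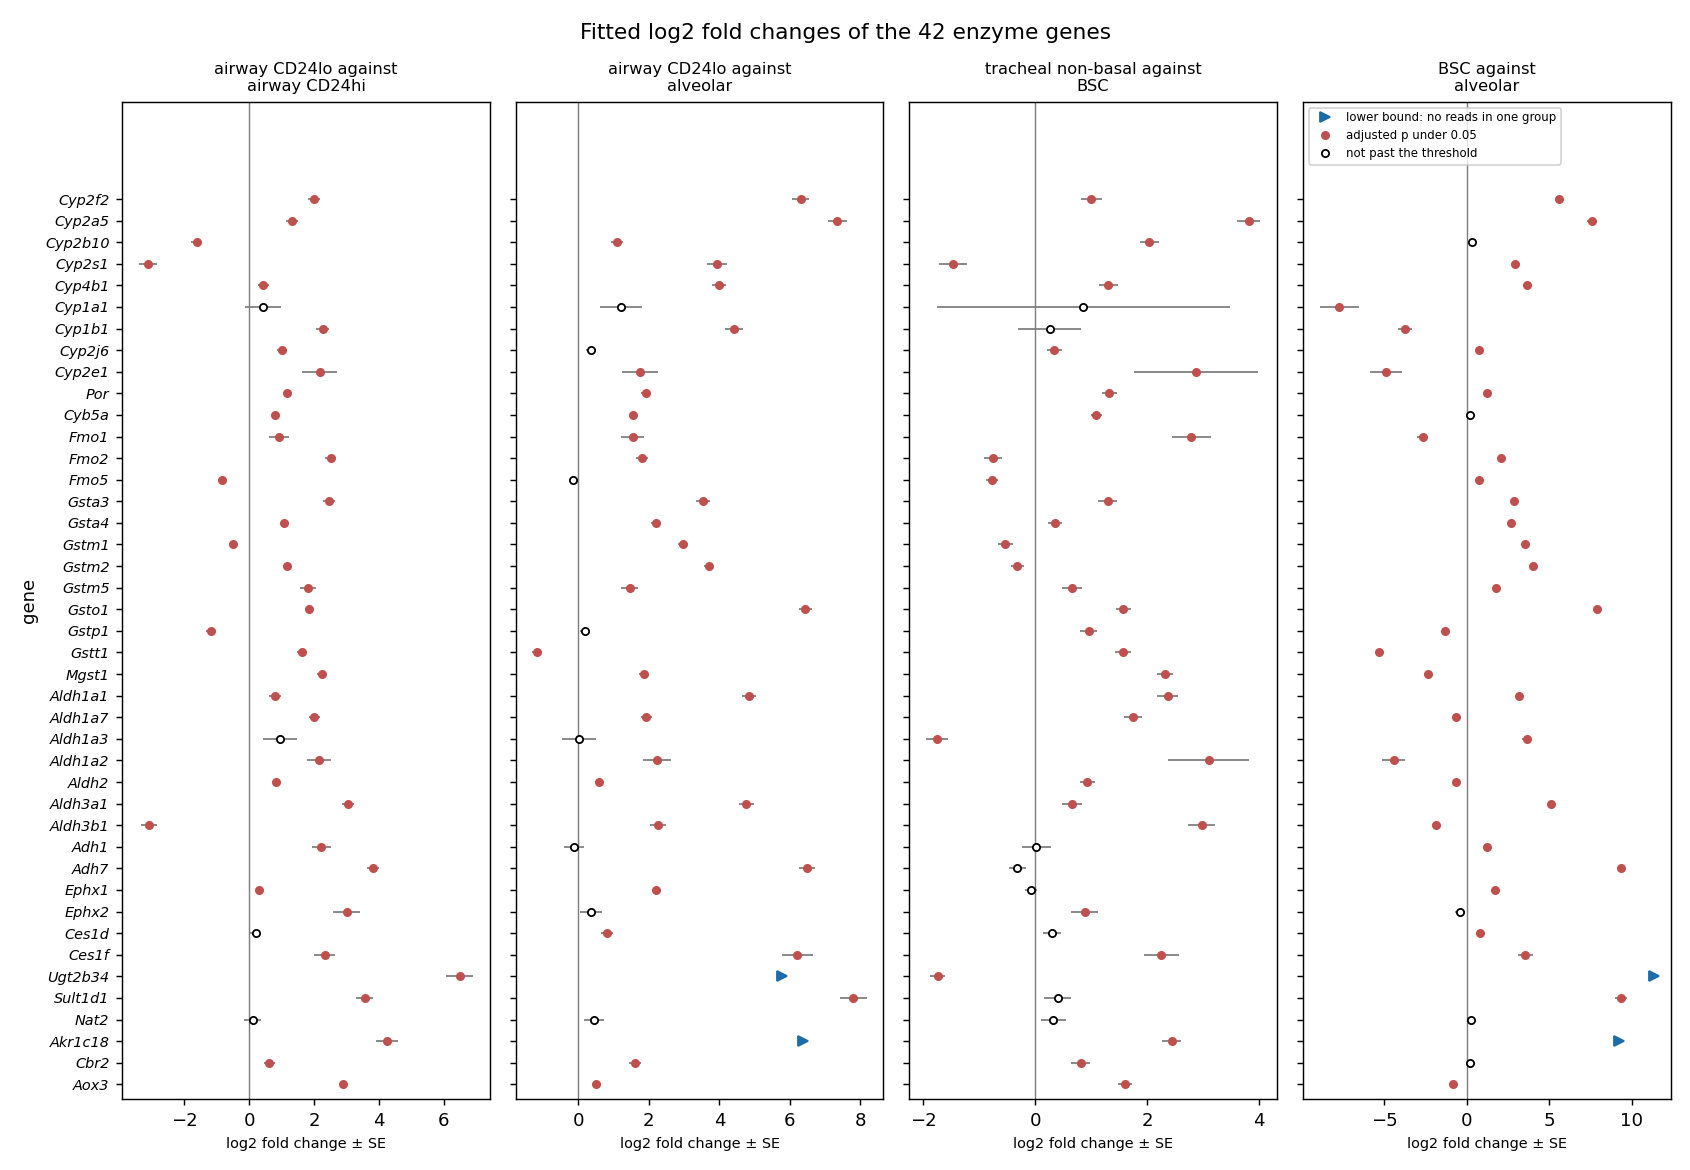
Fitted log2 fold change with its SE (x axis) for each of the 42 enzyme genes (y axis) in 4 comparisons, filled where the edgeR adjusted p was under 0.05. Triangles are lower bounds for *Ugt2b34* and *Akr1c18*, which had 0 reads in alveolar libraries. In the panel for CD24lo against alveolar cells 33 of 42 genes were called above 0 and 1, *Gstt1*, below.

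BSCs, the basal stem cells of the trachea, were also set against alveolar cells. In that gate alveolar type 2 markers summed to 154352 to 173424 RPKM and the 6 alveolar type 1 markers to 1727 to 1754. Of 42 members 25 were higher in BSCs (30.5% of all genes) and 12 lower (35.6%). The median log2 fold change was 1.23 over members and -0.09 over all genes tested. Setting the genes that had no alveolar read to their bound cannot move the member median, as their bounds also lie above it. *Adh7* was at 599, 520 and 488 RPKM in BSCs and 0.721, 0.974 and 0.728 in alveolar cells, a log2 fold change of 9.37 (SE 0.24, edgeR adjusted p = 2.18e-15). *Sult1d1* was at 330, 302 and 288 RPKM against 0.405, 0.653 and 0.337, a log2 fold change of 9.35. All BSC libraries of both genes stood far above all alveolar libraries. *Gsto1* rose by 7.92 on the log2 scale. *Ugt2b34* had 25769 reads in BSCs and 0 in alveolar cells, at least 2584-fold higher, and *Akr1c18* had 6104 reads against 0, at least 612-fold higher.

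Alveolar cells were higher than BSCs for *Gstt1*, with a log2 fold change of -5.28 (SE 0.16, edgeR adjusted p = 1.12e-14) and 5.81, 5.14 and 5.45 RPKM in BSCs. *Fmo1* fell by 2.66 on the log2 scale, *Mgst1* by 2.37, *Aldh3b1* by 1.84 and *Gstp1* by 1.29. *Cyp1a1* had 107 reads in alveolar libraries and 1 in BSC libraries, a ratio of read shares of 269 with an exact 95% counting interval of 47.2 to 10712. *Cbr2* was at similar means, 6029 ± 699 and 5241 ± 215 RPKM, and was not called (edgeR adjusted p = 0.301), with a log2 fold change of 0.20 (SE 0.17), which with library size alone was 0.61 and called (adjusted p = 0.0025). *Cyb5a*, *Ephx2*, *Nat2* and *Cyp2b10* were also not called. With library size alone *Cyb5a* (adjusted p = 1.64e-05), *Nat2* (adjusted p = 0.0302) and *Cyp2b10* (adjusted p = 0.000581) were called higher in BSCs in edgeR, as was *Cyp2b10* by limma voom (adjusted p = 0.0306).

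Tracheal non-basal cells were then compared with lung CD24lo cells. The 5 club markers summed to 91328 to 95858 RPKM in non-basal libraries and to 488452 to 688897 in CD24lo libraries. In CD24hi libraries that sum was 70513 to 92936, and in BSC libraries 3553 to 5053. Of 42 members 17 were higher in trachea (25.3% of all genes) and 15 lower (27.8%). Members had a median log2 fold change of 0.15, and all genes tested -0.04. With each library's trend on gene length removed, 23 were higher (37.6% of all genes) and 10 lower (20% of all genes), and the medians were 0.43 and 0.21. *Cyp2f2* was not called, with a log2 fold change of 0.30 (SE 0.19, edgeR adjusted p = 0.188). *Gsto1* was at 8316, 7757 and 7382 RPKM in non-basal libraries and at 818, 924 and 1074 in CD24lo libraries, a log2 fold change of 3.06 (SE 0.14, edgeR adjusted p = 2.54e-11). *Cyp2a5* rose by 4.06 in trachea, *Akr1c18* by 5.32, *Ugt2b34* by 3.81 and *Adh7* by 2.56 on the log2 scale, and the groups did not overlap for any of these.

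Lung CD24lo cells were higher for *Mgst1*, at 1522, 1977 and 2271 RPKM against 574, 474 and 485 in non-basal cells. Its log2 fold change was -1.91 (SE 0.14, edgeR adjusted p = 7.9e-09). *Cyp1b1*, a P450 regulated by the aryl hydrocarbon receptor and known outside the liver, was at 9.08, 10.5 and 12.3 RPKM in CD24lo cells and at 0.0435 ± 0.0321 in non-basal cells, a log2 fold change of -7.87 (SE 0.32). In EpCAM-negative cells it stood at 9.82 ± 0.177 RPKM. *Cyp1a1* had 237 reads in CD24lo libraries and 2 in non-basal libraries, a ratio of read shares of 346 with an exact 95% counting interval of 94.7 to 2872. In the lung gates *Cyp1a1* was highest in the mouse 4 library for CD24hi (3.68, 1.46 and 1.02 RPKM), CD24lo (5.72, 0.846 and 1.65) and EpCAM-negative cells (7.17, 2.64 and 3.74). Several marker sums were also highest in mouse 4 in the airway gates. The endothelial sum was at 211, 92.9 and 55.6 RPKM in CD24hi, 276, 122 and 117 in CD24lo and 228, 175 and 136 in EpCAM-negative libraries. In alveolar libraries *Cyp1a1* was at 1.23, 0.924 and 1.45 RPKM and the endothelial sum at 45.4, 86.3 and 56.8. In trachea that sum lay between 0.196 and 1.37 RPKM. The alveolar type 2 sum was at 1917, 894 and 931 RPKM in CD24hi and 5924, 2868 and 4462 in CD24lo libraries, and the fibroblast sum at 62.4, 46.6 and 33.9 and at 194, 177 and 165. *Cyp1b1* did not share this order, with its lowest values in mouse 4 in CD24hi (1.49, 2.59 and 2.58 RPKM) and CD24lo libraries. *Fmo1* was highest in mouse 4 among CD24hi (41.6, 20.8 and 14.3 RPKM) and CD24lo libraries (73.6, 34.7 and 37.2). The part of these other cells in *Cyp1a1* and *Fmo1* was not tested. *Gstt1* fell by 2.55 on the log2 scale in trachea, *Cyp2s1* by 2.44 and *Fmo1* by 1.41. *Ces1f* was not called, and was called lower in trachea with the mouse as a block (edgeR adjusted p = 0.00552).

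EpCAM-negative cells, in which fibroblast markers were high, were set against the epithelial gates of the same lungs. Relative to each of the 3 lung epithelial gates, 9 of 42 members were higher (20.8% of all genes, close to the share among members) and 12 lower (15.5%). *Adh1* was at 581, 542 and 578 RPKM in EpCAM-negative libraries, above all others, of which the highest was 94.9 RPKM in a non-basal library. Its log2 fold change was 6.43 against CD24hi, 4.21 against CD24lo and 4.09 against alveolar cells, with edgeR adjusted p of 9.22e-12, 9.45e-10 and 1.22e-09. *Fmo2* was at 485, 531 and 683 RPKM, and *Fmo1* at 98.6, 86.8 and 76.5. *Cyp2e1*, the P450 of ethanol and small solvents, was at 34.1, 34.9 and 36.7 RPKM and did not exceed 1.86 in any other library. The retinal dehydrogenases *Aldh1a2*, at 21.6, 21.6 and 22.8 RPKM, and *Aldh1a3*, at 8.31, 10 and 9.38, were likewise above the other populations. *Aldh1a2* rose by 5.65 against CD24hi, 3.50 against CD24lo and 5.72 against alveolar cells on the log2 scale. *Ephx2*, *Fmo5* and *Gstm5* completed the 9.

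The 12 lower members were *Cyp2f2*, *Cyp2b10*, *Cyp2s1*, *Por*, *Cyb5a*, *Gsta4*, *Mgst1*, *Aldh1a7*, *Aldh3b1*, *Ces1d*, *Cbr2* and *Aox3*. *Cbr2* was at 94.1, 134 and 144 RPKM in EpCAM-negative libraries, with log2 fold changes of -6.38 against CD24hi, -7.01 against CD24lo and -5.40 against alveolar cells. *Cyp2f2* was at 32.7, 54.2 and 55.8 RPKM, 0.411% of the CD24lo mean, and the 5 club markers were at 0.279% to 0.433% of theirs. The part of airway RNA in these low levels was not tested. *Aldh1a1*, in contrast, stayed at 412, 426 and 557 RPKM, lower than in both airway gates and higher than in alveolar cells (log2 fold change 2.69, SE 0.19, edgeR adjusted p = 7.03e-10). *Aldh1a7*, its neighbour on the chromosome, was at 2.18, 2.48 and 3.25 RPKM.

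Among the other P450s and their electron donors, *Cyp4b1*, which hydroxylates fatty acids and activates some protoxins, was at 851, 764 and 786 RPKM in non-basal libraries, 379, 441 and 412 in CD24lo and 353, 273 and 288 in CD24hi libraries, and at 25.7 ± 3.88 in alveolar cells. *Por*, the reductase that supplies electrons to microsomal P450s, was at 774 ± 71.8 RPKM in non-basal cells, 498 ± 66.8 in CD24lo cells and 96.3 ± 9.29 in EpCAM-negative cells, so its range across populations was far narrower than that of *Cyp2f2*. *Cyb5a* spanned 203 ± 12.4 in EpCAM-negative to 814 ± 102 in CD24lo cells. *Cyp2b10*, a P450 known as a target of the nuclear receptor CAR, was high in CD24hi libraries, at 243 to 283 RPKM, and in non-basal libraries, at 186 to 228. It was at 84.6 ± 6.2 in CD24lo cells, so the trachea's non-basal cells and the lung's CD24lo cells stood apart for this gene. *Cyp2j6*, which acts on arachidonic acid, varied little, from 5.24 ± 1.25 in CD24hi to 17.5 ± 1.0 in non-basal cells.

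Glutathione transferases had several patterns. *Gsta3* and *Gsta4*, alpha-class enzymes of which the latter handles hydroxynonenal, were highest in non-basal cells, at 661 ± 67.6 and 801 ± 53.3 RPKM. Both were lower in CD24hi than in CD24lo cells, at 75.4 ± 13.2 against 418 ± 67.1 RPKM for *Gsta3* and 211 ± 26.6 against 447 ± 63.2 for *Gsta4*. The mu-class genes on chromosome 3 did not share 1 order of populations. *Gstm1* was high in BSCs and CD24hi cells, at 1068 ± 124 and 1034 ± 185 RPKM with overlapping libraries, *Gstm2* in BSCs, at 348 ± 25.1, and *Gstm5* in EpCAM-negative cells, at 40.2 ± 1.51. *Gstp1* was at 268, 162 and 175 RPKM in CD24hi libraries, above every other library.

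Among hydrolases and other transferases, *Ces1f*, a carboxylesterase next to *Ces1d*, was at 76.8, 34.6 and 32.2 RPKM in non-basal libraries, with the library of mouse 1 standing apart, and at 58.0, 57.8 and 73.2 in CD24lo libraries. It was at 0.85 ± 0.107 RPKM in alveolar cells. *Ces1d* spanned only 237 ± 59.4 RPKM in EpCAM-negative cells to 1352 ± 165 in non-basal cells. *Ephx1*, the microsomal epoxide hydrolase, had 271 ± 19.2 RPKM in CD24lo and 58.4 ± 4.22 in alveolar cells, and *Ephx2*, the soluble one, at most 1.34 RPKM outside the EpCAM-negative libraries, where it was at 5.56, 6.09 and 6.06. *Nat2*, an arylamine acetyltransferase, was at 1.7 to 4.6 RPKM in all 18 libraries and was called in none of these comparisons with TMM scaling.

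Of the 42 members 19 had another member within 1 Mb (GRCm38). Some neighbours peaked in the same population and others in different ones. *Aldh3b1* and *Gstp1*, within 124 kb on chromosome 19, were both highest in CD24hi cells. *Cyp2s1*, *Cyp2b10*, *Cyp2a5* and *Cyp2f2* lay on chromosome 7 between 25802469 and 27133660. The first pair of these was highest in CD24hi cells and the last pair in tracheal non-basal cells. *Adh7* and *Adh1* lay within 92.6 kb on chromosome 3 (138198064 to 138290698), with *Adh7* at 536 ± 57.1 RPKM in BSCs and 46.9 ± 1.36 in EpCAM-negative cells, and *Adh1* at 78.6 ± 9.91 and 567 ± 21.7. *Aldh1a1* and *Aldh1a7* lay within 235 kb on chromosome 19 (20492583 to 20727556), and *Fmo1* and *Fmo2*, both highest in EpCAM-negative cells, within 69.2 kb on chromosome 1.

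The P450 members held most of the transcripts of their families. Of the summed RPKM of 75 counted P450 genes of families 1 to 4, the 9 members made up 98.2% to 99.1% in the 4 tracheal and airway populations, 67.9% in alveolar and 62.5% in EpCAM-negative cells. Near-identical copies make some members uncertain. Of the distinct runs of 100 bases, the read length, in GENCODE transcripts of *Gstp1*, 25.1% occurred exactly in other genes (*Gstp2* and a pseudogene), and for *Cyp2a5* 12.1% (*Cyp2a4* and a pseudogene). The share was 5.86% for *Gstm1*, 5.37% for *Cbr2*, and at most 3.4% for the other members.

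Other genes of the pathway were counted in lists, over the comparisons of CD24lo with CD24hi cells, CD24lo with alveolar cells and non-basal cells with BSCs, for which the shares of all genes called were 27.2%, 24.2% and 26.2% higher and 27.8%, 24.2% and 21.9% lower. Of 11 receptors and sensors tested, 1, 3 and 1 were higher in these comparisons and 5, 2 and 4 lower. *Ahr*, the aryl hydrocarbon receptor, was the 1 higher in CD24lo than in CD24hi cells, at 26.4 ± 2.92 RPKM against 8.08 ± 1.91 (log2 fold change 1.71, edgeR adjusted p = 2.34e-07). In BSCs it was at 33.6 ± 5.03 RPKM, where *Cyp1a1* had 1 read. *Nfe2l2*, encoding NRF2, a transcription factor of the oxidative stress response, was at 160 ± 20.3 RPKM in BSCs, 162 ± 21.3 in non-basal cells and 49.3 ± 1.59 in EpCAM-negative cells.

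Of 8 genes of haem and electron supply, 3, 2 and 4 were higher in the same comparisons and 1, 2 and 0 lower. *Alas1*, which starts haem synthesis, was at 385 ± 15.1 RPKM in non-basal cells, 343 ± 49.6 in CD24lo cells and 37 ± 2.1 in alveolar cells. Of 15 genes of conjugation and cofactors, 7, 6 and 4 were higher and 5, 3 and 6 lower. Of 7 efflux transporters, 5 were higher in each of these comparisons and 1, 0 and 1 lower, and *Abcc3*, which exports conjugates, was at 54.7 ± 6.77 RPKM in CD24lo against 13.4 ± 2.62 in CD24hi cells. Of 14 genes of retinoid handling, 4, 5 and 3 were higher and 2, 1 and 4 lower, and in EpCAM-negative cells 6 were higher and 1 lower than in each epithelial gate (20.8% and 15.5% of all genes). *Lrat*, which esterifies retinol, was at 52.5 ± 5.24 RPKM there. With BSCs against alveolar cells (30.5% of all genes higher and 35.6% lower) the 5 lists, in this order, had 5, 2, 8, 3 and 8 genes higher and 0, 4, 5, 4 and 2 lower. With non-basal against CD24lo cells (25.3% and 27.8%) they had 3, 1, 4, 2 and 5 higher and 0, 3, 4, 4 and 5 lower.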

How the data were processed

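Per the labels and methods, single-end 100-base reads from 18 libraries were aligned to mm10 with Rsubread and assigned to Entrez genes with featureCounts, and the authors deposited raw read counts for each library with a gene length. No rows lacked a gene (0 of 27179). A series table with the same counts was not used. Symbols matched 25275 identifiers. Genes were kept where 3 or more libraries exceeded a CPM of 0.2, which left 17989. TMM factors were computed for these, and edgeR 4.0.16 in R 4.3.3 tested them by quasi-likelihood (glmQLFit, glmQLFTest). A single model held the 18 libraries, p-values were adjusted by Benjamini-Hochberg for every gene tested, and a gene was called under 0.05. Each SE was derived as the absolute log2 fold change divided by the square root of the quasi-likelihood F statistic. The study used limma voom, which was run as an alternative. RPKM was computed here from the TMM-scaled counts and the deposited gene lengths.

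Genes named for a comparison are up to 5 members in each direction with the largest log2 fold change among those called, without overlap between groups and with a mean of at least 10 CPM in one group. Members named beyond that rule are given to account for all 42. The members, lists and tests were chosen with earlier results of these data known. Folds against 0 reads use a floor of 3 reads over the group. Intervals and floors cover counting error only.

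Within an organ, libraries with the same number come from the same mouse by the labels. Deviations from group means of same-mouse libraries correlated at 0.20 to 0.48 in trachea and at -0.09 to 0.36 in lung. No replicate pair agreed within counting noise (chi-square per degree of freedom at least 3.67). Replicate 1 (mouse 1 in trachea, mouse 4 in lung) stood apart in BSC, non-basal, CD24hi and CD24lo cells. Its pairs there had values of 22.46 to 42.42, against 5.49 to 7.88 for replicates 2 and 3. In alveolar cells replicate 2 stood apart, at 41.06 and 39.16 against 6.05 for replicates 1 and 3. EpCAM-negative pairs had 3.67 to 7.93. In simulated data for CD24lo against CD24hi cells, 17481 genes were tested and 200 changed. The fit recovered 77 of 100 genes changed 2-fold and 98 of 100 changed 4-fold, and called 8 unchanged genes. Apart from those changes, balanced up and down, all groups shared the same mean for each gene. The data had 4901 genes called higher and 4998 lower in this comparison. The simulation therefore cannot show recovery or false calls under changes that wide, or under another scaling. Other settings tried were voom (limma 3.58.1) and DESeq2 1.42.0 as tests, scaling by RLE factors or by library size alone, a filter of CPM above 1 and none, a fit of only the compared libraries, a replicate block, a threshold fold of 2 (glmTreat), leaving out each library, and, across organs, thinning of the tracheal libraries and removal of a gene length trend.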

Additional observations from a re-analysis of the deposited data

How the results depend on the processing

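Of 1360 alternative values for 76 pairs of a named gene and a comparison, 1352 kept their direction and stayed past the threshold, 0 reversed, and 8 kept their direction but did not pass a test against a fold change of 2 (*Fmo5* and *Gstp1* for CD24lo against CD24hi cells, *Gstt1* for CD24lo against alveolar cells, *Cyp2s1*, *Fmo2*, *Fmo5* and *Gstm1* for non-basal cells against BSCs, and *Fmo1* for non-basal against CD24lo cells). With that test 20 members were higher and 3 lower in CD24lo than in CD24hi cells, 0 were lower in CD24lo than in alveolar cells, 14 were higher and 2 lower in non-basal cells than in BSCs, 7 were higher and 7 lower in non-basal than in CD24lo cells, and 7 were lower in EpCAM-negative cells than in each epithelial gate. By that test 8 members were higher in both CD24lo than CD24hi and non-basal cells than BSCs, and 10 in both CD24lo than alveolar and non-basal cells than BSCs. These joint counts, whose alternatives were chosen after seeing the data, were 15 and 19 with library size alone and 20 to 25 and 21 to 24 without one library. With library size alone 0 members were highest in alveolar cells. The 76 pairs were picked as called, without overlap and with the largest fold changes, so their tally favours stable calls. Outside them, library size alone ended the calls of *Cbr2* and *Cyp4b1* for CD24lo against CD24hi cells. It also ended those of *Gsta4* and *Aldh3a1* for non-basal cells against BSCs and of *Aldh2* for BSCs against alveolar cells. Some calls were gained instead, such as *Cyp2b10* in BSCs against alveolar cells.

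Leaving out each library in turn left 29 to 32 members higher and 6 lower in CD24lo than in CD24hi cells, 32 to 34 and 1 in CD24lo than in alveolar cells, 24 to 25 and 6 to 7 in non-basal cells than in BSCs, 25 to 26 and 12 in BSCs than in alveolar cells, 17 to 18 and 13 to 16 in non-basal than in CD24lo cells, and 7 to 10 and 11 to 12 in EpCAM-negative cells. With a replicate block for the mouse, 25 and 24 members were higher in both comparisons of each pair, 28 members were higher and 7 lower in non-basal cells than in BSCs, 32 and 6 in CD24lo than in CD24hi cells and 33 and 1 in CD24lo than in alveolar cells, and the block moved no member count by over 1.5 times. In the comparisons of non-basal cells with BSCs and with CD24lo cells it changed the calls of *Sult1d1* and *Ces1f* described above.

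Library size alone moved the median of all genes from 0.06 to -0.21 for CD24lo against CD24hi cells, from 0.02 to -0.31 for non-basal cells against BSCs and from -0.09 to 0.29 for BSCs against alveolar cells (log2). The share of called genes that were higher then went from 49.5% to 31.6%, from 54.5% to 27.8% and from 46.1% to 64.5%. Member medians were 0.95, 0.60 and 1.64 with that scaling, and 28, 21 and 29 members were called higher. Removing the gene length trend moved the share of called genes higher in non-basal than in CD24lo cells from 47.6% to 65.3% and the median of all genes from -0.04 to 0.21. Few reads in one or more groups limited the precision for *Cyp1a1*, *Cyp2e1*, *Aldh1a2*, *Aldh1a3*, *Ugt2b34* and *Akr1c18*.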
